A study of Mus musculus with 12 samples.

Results

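The genes described here are 34 nuclear receptors of mouse liver that lie outside the sterol sensors and the clock loop. Each was read through the probe set whose platform annotation gives that gene symbol alone and, for the 1 gene with more than 1 such probe set (Nr3c2), through the one with the highest mean. All 34 of the 34 listed genes were measured, among 22180 genes in all. Livers came from male mice that were 8 weeks old at the start and were kept for 9 weeks on their diet, with 1 single-colour Affymetrix array per liver sample and 3 numbered biological replicates per group. The groups were Lats2-CKO mice fed the high-cholesterol (Paigen) chow, with 1.25% cholesterol and written HCD here, Lats2-CKO mice fed a normal chow without cholesterol, written ND, and wild-type mice fed HCD or ND. Lats2 is a Hippo pathway kinase, and the labels name the mutant line both Lats2-CKO and Lats2-KO without giving the exons deleted, the cells affected or the Cre driver.

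Nuclear receptors are transcription factors that bind DNA through zinc fingers, and most are switched by a small lipid-soluble ligand such as a steroid, a retinoid, a thyroid hormone, a fatty acid or a drug. Many of them act as dimers with a retinoid X receptor on paired copies of a short hexamer of DNA, and the spacing of the copies helps to select the dimer. In hepatocytes they set drug metabolism, fatty acid oxidation, bile acid synthesis and the hepatocyte program itself, and their activity depends on ligands and cofactors as well as on the amount of their messenger RNA, which is all that an array reads.

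Values are log2 expression per probe set as the authors deposited them. A value of one probe set cannot be set against that of another gene, so levels are compared only between arrays. Of the 34 receptors, 28 had a mean above the 30th percentile of all genes (a value of 3.04), and 6 (Hnf4g, Nr2f1, Vdr, Rorb, Nr4a2 and Esrrb) lay below it at means of 2.78 to 2.97, where an array can hardly show a change. Hepatocyte markers had list means of 12.3 to 12.5 on the 12 arrays, so the arrays read as liver. Lats2 itself read 4.37 to 4.99 on the 6 Lats2-CKO arrays, against 5.12 to 5.97 on the 6 wild-type arrays. Wild-type ND array 3 was unlike its group: its correlations averaged 0.981 with the other wild-type ND arrays and 0.987 with the wild-type HCD arrays. It was kept as labelled, and for named genes whose diet call changes without it, values from both fits are given. The array was picked out from these same values, so leaving it out favours diet calls. Adjusted p values without it do not allow for that choice. By median value the arrays split into a higher set (3.48 to 3.49) and a lower set (3.42 to 3.43). Normal-diet livers gave 4 of the 6 higher arrays but only 2 of the 6 lower ones, so set and diet are partly tied. Diet changes within these sets are given for Nr2c2, Nr3c1, Esr1, Nr2f6 and Rarb only. Those of the other receptors and of the target genes are not split by set. With set as a block, 43 genes had a limma adjusted p below 0.05 for diet over both genotypes, against 274 without it. Whether RNA, labelling or scanning set the sets apart is not given in the sources used here.

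**Figure D1:**
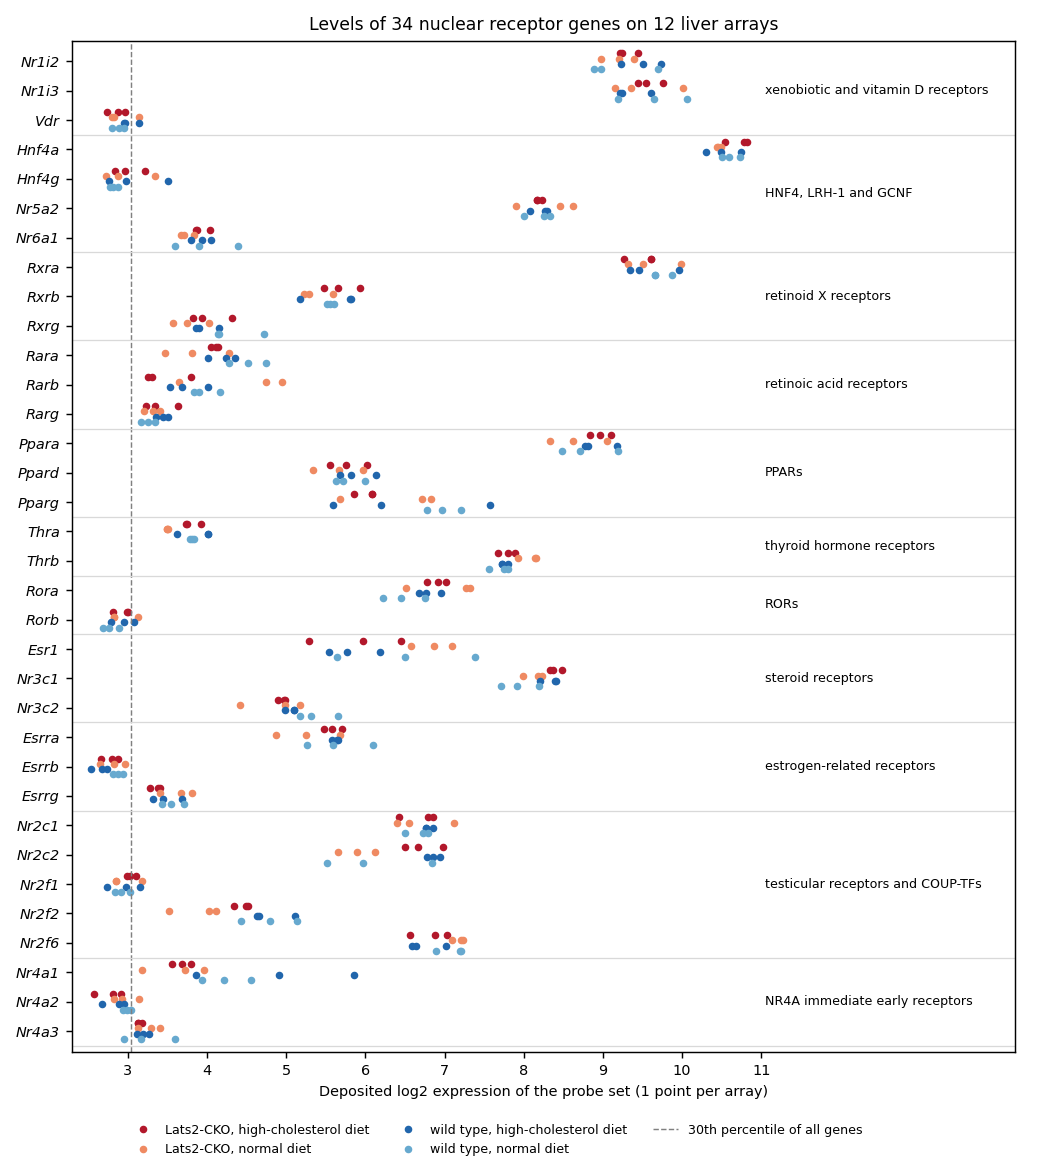
Log2 expression (horizontal axis) of the 34 receptor genes, grouped by role down the page, with 1 point per array and colours for the 4 groups; the dashed line is the 30th percentile of all genes. The groups overlap for most receptors, and 6 genes have a mean left of the line.

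In the main fit of all 12 arrays, no receptor passed the threshold in any comparison. The test was limma across all genes with Benjamini-Hochberg adjustment at 0.05. For the high-cholesterol against the normal diet over both genotypes, 0 of 34 receptors passed, where 1.24% of all genes did, and 6 of 34 had an unadjusted p under 0.05, where 18% of all genes did. Their median change was 0.06 and that of all genes -0.02. The smallest adjusted p among them was 0.0715, for Nr2c2. Without wild-type ND array 3, which was picked out from these same values, Nr2c2 and Nr3c1 rose and Esr1 fell. That is 3 of 34 receptors where 7.24% of all genes passed, a share near the background.

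**Figure D2:**
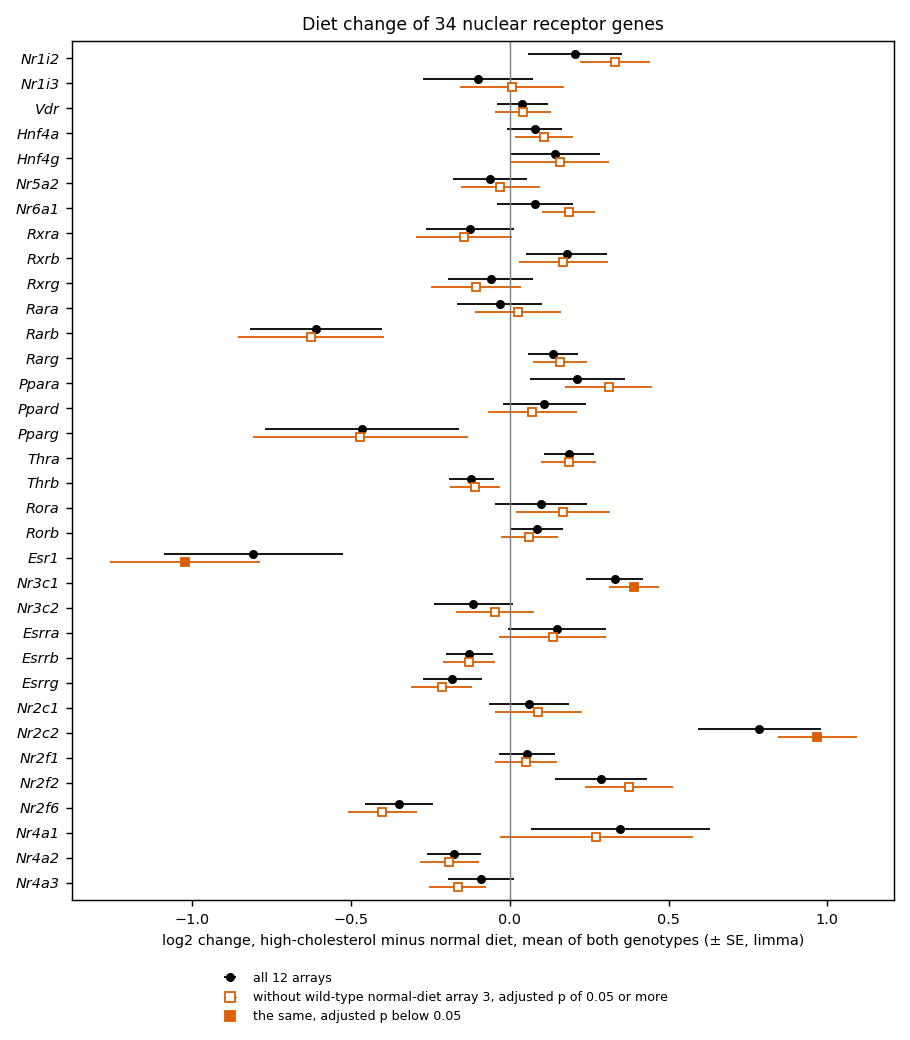
Change of each receptor with diet (high-cholesterol minus normal, mean of both genotypes, log2 ± SE) over all 12 arrays (black circles) and without wild-type ND array 3 (squares, filled where the adjusted p was below 0.05). Filled squares are those of Nr2c2 (0.97), Nr3c1 (0.39) and Esr1 (-1.02).

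Nr2c2 encodes the testicular receptor TR4, an orphan receptor that binds direct repeats of the hexamer and takes part in lipid and glucose metabolism in mouse liver. It read 6.50, 6.66 and 6.98 on the Lats2-CKO HCD arrays, against 5.65, 6.12 and 5.89 on the Lats2-CKO ND arrays. In wild type it read 6.94, 6.78 and 6.85 on the high-cholesterol diet, against 5.52, 5.98 and 6.84 on the normal diet. All 6 high-cholesterol values lay above 5 of the 6 normal-diet values, and the remaining one, wild-type ND array 3, lay among them. The change over both genotypes was 0.79 ± 0.19 (SE, 6 arrays against 6; 1.72-fold; limma adjusted p = 0.0715), and without that array Nr2c2 rose by 0.97 ± 0.125 (1.96-fold; limma adjusted p = 0.00224). By genotype the change was 0.83 ± 0.27 in Lats2-CKO and 0.74 ± 0.27 in wild type. Without that array it rose in both, by 0.83 ± 0.17 and 1.11 ± 0.19 (limma adjusted p = 0.0382 and 0.0177), as the 1 of 34 receptors to pass in each genotype, where 2.11% and 2.33% of all genes passed. The interaction of genotype and diet was 0.08 ± 0.39 (limma adjusted p = 0.994). Split by array set, the change over both genotypes was 0.91 (higher set) and 0.45 (lower set), and 0.68 with set as a block (limma adjusted p = 0.126). In the lower set wild type gave -0.03, a value that rests on array 3 alone on the normal-diet side. The close relative Nr2c1, encoding TR2, ran from 6.40 to 7.13 over all arrays and had a change of 0.06 ± 0.13 (limma adjusted p = 0.843).

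Nr3c1 encodes the glucocorticoid receptor. Its values were 8.48, 8.33 and 8.37 on the Lats2-CKO HCD arrays, against 7.98, 8.17 and 8.22 on the Lats2-CKO ND arrays, and 8.20, 8.40 and 8.41 on the wild-type HCD arrays, against 7.72, 7.91 and 8.19 on the wild-type ND arrays. Within each genotype the diets did not overlap, which held for 8.98% of all genes on the higher side in Lats2-CKO and 4.97% in wild type. The change over both genotypes was 0.33 ± 0.09 (limma adjusted p = 0.0927). Without wild-type ND array 3 Nr3c1 rose by 0.39 ± 0.08 (1.31-fold; limma adjusted p = 0.0169). By array set it was 0.39 (higher) and 0.17 (lower), and 0.28 with set as a block (limma adjusted p = 0.156). Of 16 measured glucocorticoid receptor targets, 0 passed with all arrays, 4 had higher and 12 lower fitted values, and the median was -0.12 (-0.24 without array 3). By genotype, 4 were higher and 12 lower in Lats2-CKO (median -0.23), against 11 higher and 5 lower in wild type (median 0.19, and -0.02 without array 3). By limma 0 of the 16 passed for the interaction. Without array 3, Tdo2, which degrades tryptophan, rose by 0.33 ± 0.08 and Tat, which degrades tyrosine, had a change of -0.62 ± 0.10 (limma adjusted p = 0.0364 and 0.00733). With all arrays the changes of Tdo2 and Tat were 0.26 ± 0.09 and -0.53 ± 0.12 (limma adjusted p = 0.162 and 0.0604). Fkbp5, a chaperone of the receptor that glucocorticoids induce, had a change of -0.13 ± 0.20 (limma adjusted p = 0.778), and Tsc22d3, another induced gene, of -0.40 ± 0.16 (limma adjusted p = 0.233).

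Esr1 encodes estrogen receptor alpha, which hepatocytes also express in males. It read 5.29, 6.45 and 5.97 on the Lats2-CKO HCD arrays, against 6.87, 6.58 and 7.09 on the Lats2-CKO ND arrays. Wild type gave 6.19, 5.77 and 5.55 on the high-cholesterol diet, against 6.50, 7.38 and 5.64 on the normal diet. The diets did not overlap in Lats2-CKO, which held for 10.5% of all genes on the lower side, and in wild type only array 3 of the normal-diet group lay among the high-cholesterol values. The change was -0.81 ± 0.28 over both genotypes (limma adjusted p = 0.17), and without array 3 Esr1 fell, with a change of -1.02 ± 0.24 (0.492-fold; limma adjusted p = 0.0294). By array set it was -1.09 (higher) and -0.43 (lower), and -0.76 with set as a block (limma adjusted p = 0.266). Its spread around the group means was larger than that of 97.2% of all genes.

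The mineralocorticoid receptor gene Nr3c2 had a change of -0.12 ± 0.12 with diet (limma adjusted p = 0.678). Nr2f6, encoding the COUP-TF relative EAR2, read 6.56, 7.03 and 6.88 on the Lats2-CKO HCD arrays, against 7.23, 7.20 and 7.09 on the Lats2-CKO ND arrays, and 6.63, 6.59 and 7.02 on the wild-type HCD arrays, against 7.21, 7.20 and 6.89 on the wild-type ND arrays. All high-cholesterol values of Lats2-CKO were lower, while in wild type the groups overlapped. The change was -0.35 ± 0.11 over both genotypes (limma adjusted p = 0.126), nearly the same in each genotype (-0.35 ± 0.15 in both), and it missed the threshold without array 3 as well, at -0.40 ± 0.11 (limma adjusted p = 0.0521). It was -0.61 in the higher and -0.11 in the lower array set.

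**Figure D3:**
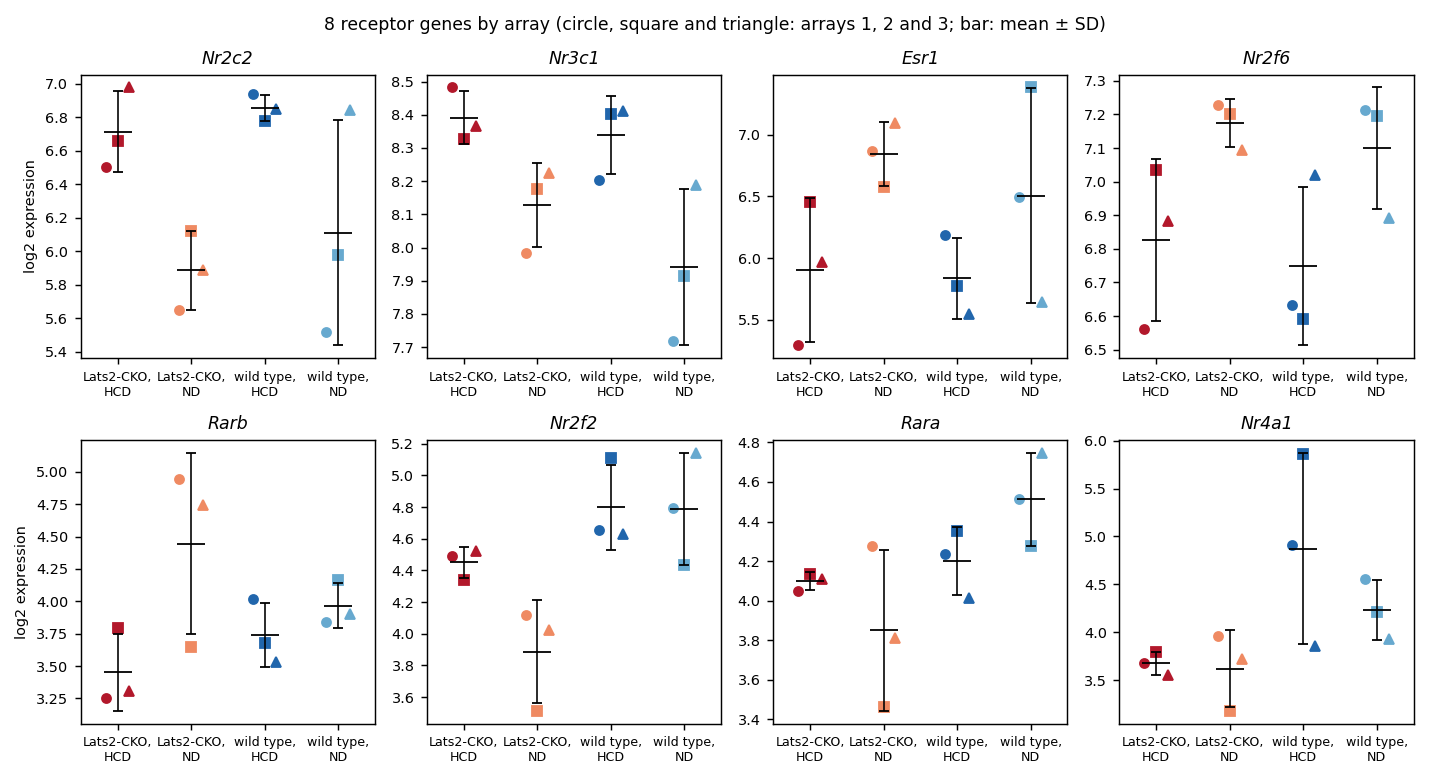
Log2 expression (vertical axis, a separate range per panel) of 8 receptor genes by group and array, with the mean ± SD of 3 arrays; HCD is the high-cholesterol and ND the normal diet. In the Nr2c2 and Esr1 panels the triangle of the wild-type ND group (array 3) lies at the level of the high-cholesterol groups.

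Neither drug-sensing receptor passed for diet, while some genes that they control rose. Nr1i3 encodes CAR and Nr1i2 encodes PXR, which induce cytochrome P450 genes when drugs or bile acids are present. Nr1i3 ran from 9.45 to 9.76 on the Lats2-CKO HCD arrays, against 9.16 to 10.01 on the Lats2-CKO ND arrays, and from 9.22 to 9.61 on the wild-type HCD arrays, against 9.20 to 10.06 on the wild-type ND arrays. Nr1i2 ran from 9.21 to 9.44 and from 9.22 to 9.73 on the high-cholesterol arrays of Lats2-CKO and wild type, against 8.98 to 9.39 and 8.88 to 9.69 on their normal-diet arrays. The groups overlapped for both genes. Diet changes over both genotypes were -0.10 ± 0.17 for Nr1i3 and 0.20 ± 0.15 for Nr1i2 (limma adjusted p = 0.807 and 0.509), and 0.01 and 0.33 without array 3. Vdr, encoding the vitamin D receptor, ran from 2.73 to 3.15 and its target Cyp24a1 from 2.67 to 3.34, both with means below the 30th percentile.

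Of 18 measured CAR and PXR targets, 15 had higher fitted values with diet over both genotypes and the median change was 0.73, against -0.02 for all genes. With all arrays 1 passed on the higher side and 1 on the lower side, where 1.24% of all genes passed. Without wild-type ND array 3, 9 passed on the higher side and 1 on the lower side, where 7.24% of all genes passed. Cyp3a11, the main drug-metabolising cytochrome that PXR induces, rose by 0.84 ± 0.17 (limma adjusted p = 0.0446), and the retinal dehydrogenase gene Aldh1a1 had a change of -0.35 ± 0.06 (limma adjusted p = 0.0403). Cyp2c55 read 7.10, 8.34 and 7.15 on the Lats2-CKO HCD arrays, against 3.89, 3.82 and 2.88 on the Lats2-CKO ND arrays, and 6.08, 6.04 and 6.14 on the wild-type HCD arrays, against 4.28, 3.83 and 8.08 on the wild-type ND arrays. Only array 3 of the wild-type ND group was high among the normal-diet arrays, and without it Cyp2c55 rose by 3.02 ± 0.26 (limma adjusted p = 0.000266; 0.088 with all arrays). Cyp2b10, the classical CAR target, had a change of 1.11 ± 0.58 (limma adjusted p = 0.343). The Cyp2b, Cyp2c and Cyp3a genes have near-identical copies that an array may not separate, so their values are uncertain.

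**Figure D4:**
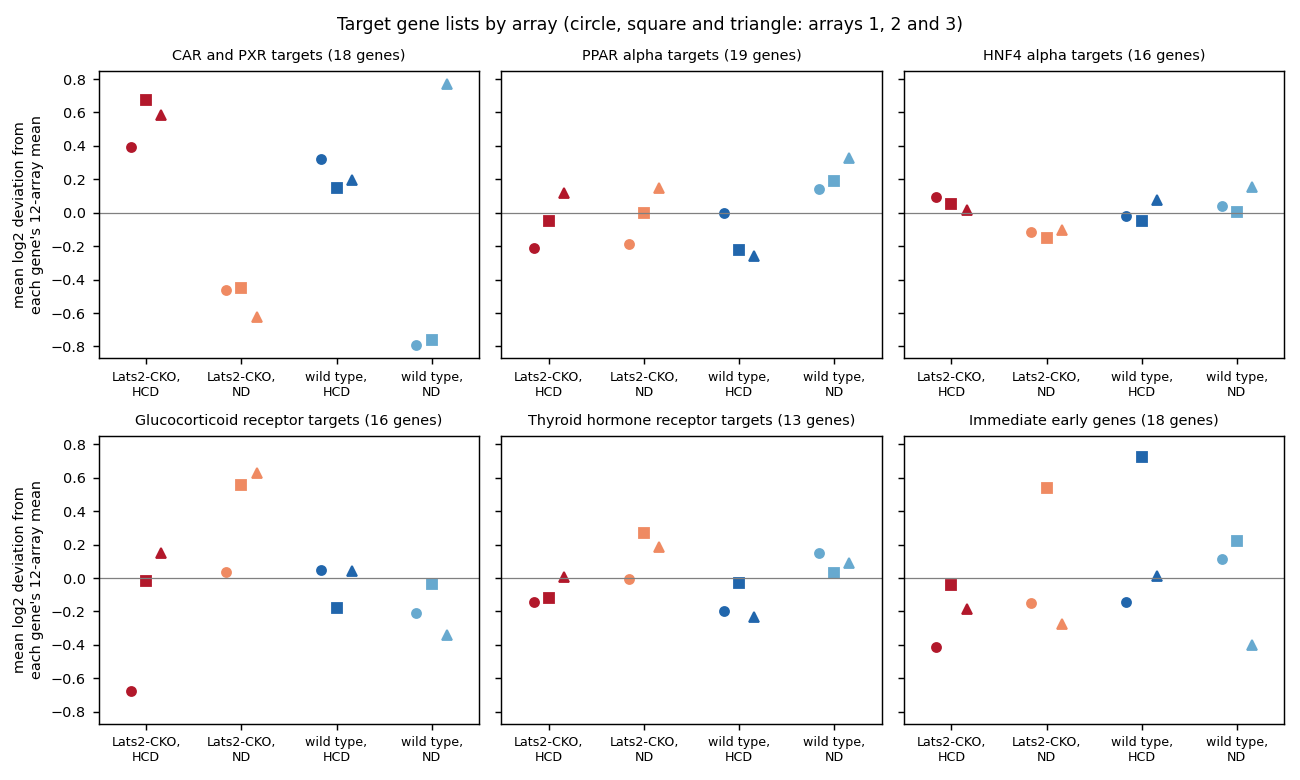
Mean deviation of each target list from the genes' own 12-array means (vertical axis, log2) by group and array; HCD is the high-cholesterol and ND the normal diet. CAR and PXR targets lie at 0.15 to 0.67 on the 6 high-cholesterol arrays and below 0 on the normal-diet arrays except the triangle of wild type (array 3), at 0.77.

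Among the receptors of the hepatocyte program, Hnf4a encodes HNF4 alpha, which keeps hepatocyte genes switched on. It read 10.54, 10.78 and 10.82 on the Lats2-CKO HCD arrays, against 10.44, 10.45 and 10.49 on the Lats2-CKO ND arrays. In wild type it read 10.31, 10.49 and 10.74 on the high-cholesterol diet, against 10.60, 10.51 and 10.73 on the normal diet. The diets did not overlap in Lats2-CKO and overlapped in wild type, with changes of 0.25 ± 0.12 and -0.10 ± 0.12 and an interaction of 0.35 ± 0.17 (limma adjusted p = 0.402, 0.835 and 0.913). Of 16 measured HNF4 alpha targets 0 passed for diet over both genotypes with all arrays or without array 3, and 8 had higher and 8 lower fitted values. By genotype, 13 were higher and 3 lower in Lats2-CKO (median 0.08), against 7 higher and 9 lower in wild type (median -0.03). By limma 0 of these targets passed in either genotype or for the interaction, where 12 had higher and 4 lower fitted values (median 0.25). Hnf4g, the dim HNF4 gamma gene, ran from 2.73 to 3.50. Nr5a2, encoding LRH-1, which drives bile acid synthesis genes, had a change of -0.06 ± 0.12 (limma adjusted p = 0.819), and Nr6a1, the germ cell nuclear factor, of 0.08 ± 0.12 (limma adjusted p = 0.775).

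Among 12 measured genes listed as LRH-1 or ROR alpha targets, 1 rose and 1 fell with diet over both genotypes, where 1.24% of all genes passed. Without array 3, 2 rose and 3 fell, where 7.24% of all genes passed. The sterol transporter gene Abcg5 rose by 1.61 ± 0.30 and Cyp7b1, of the alternative bile acid pathway, had a change of -1.84 ± 0.35 (limma adjusted p = 0.0403 and 0.0407). Cyp8b1, the sterol 12-alpha-hydroxylase, had a change of -4.47 ± 1.02 with all arrays and of -5.59 ± 0.39 without array 3 (limma adjusted p = 0.0605 and 7.53e-05). Cyp7a1, which sets the pace of bile acid production, had a change of -2.44 ± 1.09 and without array 3 of -3.56 ± 0.59 (limma adjusted p = 0.269 and 0.00682), and it read 3.80 on that array, against 10.23 and 10.69 on the other wild-type ND arrays. Pericentral hepatocyte genes, those expressed around the central vein, were lower too. Of 12 measured, 3 fell with diet over both genotypes and 8 without array 3, against the same shares of all genes. The part of the pericentral genes in these values was not tested. Sterol and bile acid receptors also control several of the LRH-1 and ROR alpha targets. Rora, encoding ROR alpha, had a change of 0.10 ± 0.15 with diet (limma adjusted p = 0.772).

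The PPAR family senses fatty acids. Ppara, encoding PPAR alpha of fatty acid oxidation, read 8.83, 8.97 and 9.11 on the Lats2-CKO HCD arrays, against 8.62, 8.33 and 9.06 on the Lats2-CKO ND arrays. In wild type it read 8.81, 9.17 and 8.77 on the high-cholesterol diet, against 8.71, 8.48 and 9.19 on the normal diet. These groups overlapped, and the change was 0.21 ± 0.15 (limma adjusted p = 0.499). Fitted values were lower for 16 of 19 measured PPAR alpha targets (median -0.27). With all arrays the peroxisomal gene Pex11a alone passed, at -0.45 ± 0.09 (limma adjusted p = 0.0455). Without array 3, 4 fell and 1 rose, where 7.24% of all genes passed. Among them were the carnitine palmitoyltransferase gene Cpt2 at -0.42 ± 0.07 and the fatty acid transporter gene Cd36 at 1.33 ± 0.26 (limma adjusted p = 0.0057 and 0.0144). With all arrays the changes of Cpt2 and Cd36 were -0.36 ± 0.08 and 1.08 ± 0.32 (limma adjusted p = 0.0663 and 0.115). The oxidation genes Pdk4 and Cyp4a14 and the hormone gene Fgf21 had changes of -0.31 ± 0.33, -0.26 ± 0.10 and 0.14 ± 0.17 (limma adjusted p = 0.663, 0.183 and 0.704), and the pantetheinase gene Vnn1 had one of -0.73 ± 0.16 (limma adjusted p = 0.0562), which passed without array 3 at -0.75 ± 0.18 (limma adjusted p = 0.0342).

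Pparg encodes PPAR gamma, the receptor of fat storage, and varied more within groups than 97.7% of all genes did. It read 6.08, 5.86 and 6.08 on the Lats2-CKO HCD arrays, against 5.68, 6.83 and 6.72 on the Lats2-CKO ND arrays. Wild type gave 7.58, 6.19 and 5.60 on the high-cholesterol diet, against 7.21, 6.78 and 6.97 on the normal diet. The wild-type HCD arrays held both the highest and the lowest value of the 12, and the diet change was -0.47 ± 0.31 (limma adjusted p = 0.463). Of 10 measured PPAR gamma and lipogenic targets, the lipid droplet gene Cidec had a change of -2.99 ± 0.375 with all arrays (limma adjusted p = 0.0192). Without array 3 the lipase gene Lpl and Cd36 rose as well (Lpl by 2.49 ± 0.34, limma adjusted p = 0.00304). In these fits 1.24% and 7.24% of all genes passed. With all arrays the changes of Lpl and Cd36 were 2.08 ± 0.47 and 1.08 ± 0.32 (limma adjusted p = 0.0586 and 0.115). Macrophages also express both genes. Of 21 macrophage and Kupffer cell markers, 6 rose with diet over both genotypes and 10 without array 3, against the same shares of all genes. With all arrays 21 of these markers had higher fitted values (median 0.89). Their part in the Lpl and Cd36 values was not tested. Ppard, the delta member of the family, had a change of 0.11 ± 0.13 (limma adjusted p = 0.712).

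Among the receptors of retinoid signalling, Rarb encodes retinoic acid receptor beta, whose gene is itself induced by retinoic acid through a repeated hexamer just before its start. The 250 bases before the start are shown for Rarb, as a receptor with such a repeat, and for Nr2c2, as the receptor with the smallest adjusted p for diet. They are from RefSeq on GRCm38.p6, at chr14:16575477-16575726 on the minus strand and chr6:92092183-92092432 on the plus strand, written 5′ to 3′ on the strand of the gene, with capitals for hexamers on either strand. The hexamer AGGTCA was searched first. The variant AGTTCA was searched too. Another variant was GGGTCA. The last variant was GGTTCA. A word ending in A may share that base with a following word that begins with A.
Rarb: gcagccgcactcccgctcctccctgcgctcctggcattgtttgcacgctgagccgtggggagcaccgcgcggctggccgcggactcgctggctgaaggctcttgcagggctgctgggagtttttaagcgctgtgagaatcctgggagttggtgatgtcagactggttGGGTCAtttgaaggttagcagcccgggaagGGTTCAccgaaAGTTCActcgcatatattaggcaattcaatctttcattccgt
Nr2c2: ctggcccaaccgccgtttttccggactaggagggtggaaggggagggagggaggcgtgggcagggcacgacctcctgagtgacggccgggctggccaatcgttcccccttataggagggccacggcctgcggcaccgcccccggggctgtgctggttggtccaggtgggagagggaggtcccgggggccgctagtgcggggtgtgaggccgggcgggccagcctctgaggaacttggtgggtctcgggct
The Rarb window held 3 hexamers, beginning at positions -83, -53 and -42, where -1 is the base just before the start. The hexamers at -53 and -42 point the same way with 5 bases between them. Such a direct repeat was held on either strand by 0.09% of all 32851 windows. Among the 31 receptors with a window searched, Rarb was the only one with such a repeat. The Nr2c2 window held none of the hexamers and 18 CG dinucleotides, against a median of 6 over all windows. Over the 51 windows found for 31 of the receptors, 37.3% held at least 1 hexamer, against 38.6% of all windows, and the median number of CG dinucleotides was 11. Such matches describe letters and not binding.

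Rarb read 3.26, 3.79 and 3.31 on the Lats2-CKO HCD arrays, against 4.95, 3.64 and 4.74 on the Lats2-CKO ND arrays. In wild type it read 4.01, 3.68 and 3.53 on the high-cholesterol diet, against 3.84, 4.16 and 3.90 on the normal diet. Arrays 1 and 3 of the Lats2-CKO ND group were the highest of the 12, and array 2 lay among the high-cholesterol arrays. The change was -0.99 ± 0.29 in Lats2-CKO and -0.22 ± 0.29 in wild type, with an interaction of -0.77 ± 0.42 (limma adjusted p = 0.164, 0.841 and 0.929). Without Lats2-CKO ND array 2, the array that lay among the high-cholesterol values, the Rarb change was -1.40 in Lats2-CKO (limma adjusted p = 0.0387). Leaving out an array whose own Rarb value went against the change favours a call. The adjusted p does not allow for that. Of 21 alternatives, leaving out that array was the 1 under which Rarb passed in Lats2-CKO, and the change ran from -1.40 to -0.74. With that array left out, 26 of 22180 genes passed for diet in Lats2-CKO. By array set the Lats2-CKO change was -1.04 (higher) and -1.20 (lower). The higher-set value rests on array 1 alone on the high-cholesterol side. The lower-set value rests on array 3 alone on the normal-diet side. The retinoic acid-degrading gene Cyp26b1 had a change of -0.69 ± 0.15 over both genotypes (limma adjusted p = 0.0517) and of -0.82 ± 0.11 without wild-type ND array 3 (limma adjusted p = 0.00321), while the related Cyp26a1 had a change of -0.42 ± 0.62 (limma adjusted p = 0.77). Of the 12 measured RAR and vitamin D receptor targets, Cyp26b1 was the 1 that passed over both genotypes without that array, and 0 passed with all arrays. Lrat, which esterifies retinol and marks stellate cells, had a change of -0.91 ± 0.23 (limma adjusted p = 0.0795) and of -0.97 ± 0.25 without array 3 (limma adjusted p = 0.0433). Rara and Rarg, the other retinoic acid receptors, had diet changes of -0.03 ± 0.13 and 0.14 ± 0.08 (limma adjusted p = 0.923 and 0.406).

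The retinoid X receptors, partners of many of the others, showed no diet change past the threshold. Rxra read 9.27 to 9.61 and 9.35 to 9.96 on the high-cholesterol arrays of Lats2-CKO and wild type, against 9.31 to 9.98 and 9.66 to 9.88 on their normal-diet arrays. These ranges overlapped in both genotypes, with a change of -0.13 ± 0.14 (limma adjusted p = 0.683). Rxrb had a change of 0.18 ± 0.13 and Rxrg of -0.06 ± 0.13 (limma adjusted p = 0.501 and 0.855).

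Of the thyroid hormone receptor genes, Thrb, the main hepatic form, read 7.67, 7.89 and 7.80 on the Lats2-CKO HCD arrays, against 8.14, 8.15 and 7.92 on the Lats2-CKO ND arrays. In wild type it read 7.73, 7.73 and 7.80 on the high-cholesterol diet, against 7.56, 7.81 and 7.75 on the normal diet. The Lats2-CKO ND arrays were the 3 highest of the 12. The diet change was -0.29 ± 0.10 in Lats2-CKO and 0.05 ± 0.10 in wild type, with an interaction of -0.34 ± 0.14 (limma adjusted p = 0.239, 0.922 and 0.888). Thra read 3.75, 3.92 and 3.73 on the Lats2-CKO HCD arrays and 3.50, 3.51 and 3.50 on the Lats2-CKO ND arrays, against 4.02, 3.62 and 4.01 on wild-type HCD and 3.83, 3.79 and 3.81 on wild-type ND arrays. Its Lats2-CKO ND arrays were the 3 lowest, with a diet change of 0.30 ± 0.11 in Lats2-CKO (limma adjusted p = 0.262). Of 13 measured thyroid hormone targets, 1 fell with diet over both genotypes, where 1.24% of all genes passed. This was Dio1, the deiodinase that activates thyroid hormone, at -1.80 ± 0.32 (limma adjusted p = 0.0367). Without wild-type ND array 3, 2 fell, Dio1 and Bcl3, where 7.24% of all genes passed. Bcl3 then had a change of -1.10 ± 0.27 (limma adjusted p = 0.039; 0.216 with all arrays). The lipogenic target Thrsp had a change of 0.29 ± 0.25 (limma adjusted p = 0.597).

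For diet within each genotype, 0 of 34 receptors passed in Lats2-CKO, where 0.271% of all genes did, and 7 had an unadjusted p under 0.05, where 13.4% did. In wild type 0 of 34 receptors passed by limma, as did 0% of all genes, and 3 had an unadjusted p under 0.05, where 10.6% did. In Lats2-CKO the diets did not overlap for 6 receptors on the higher side (Hnf4a, Thra, Nr3c1, Nr6a1, Nr2c2 and Nr2f2), where 8.98% of all genes were, and 4 on the lower side (Thrb, Esr1, Esrrg and Nr2f6), where 10.5% were. In wild type they did not overlap for 3 on the higher side (Rarg, Nr3c1 and Vdr), where 4.97% of all genes were, and 2 on the lower side (Esrrb and Nr3c2), where 8.81% were. For the genotype by diet interaction 0 of 34 passed by limma, where 0.00451% of all genes did, 2 (Rxrg and Thrb) had an unadjusted p under 0.05, where 5.62% of all genes did, and the smallest adjusted p was 0.888.

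For Lats2-CKO against wild type, 0 of 34 receptors passed by limma on the normal diet, where 0.0135% of all genes did, 0 on the high-cholesterol diet, where 0% did, and 0 over both diets, where 0.00451% did. Lats2 itself did not pass in any of these comparisons. Its change was -0.68 ± 0.23 on the normal diet and -0.73 ± 0.16 over both diets (limma adjusted p = 0.35 and 0.486). A receptor change of that size could therefore be missed. At an unadjusted p under 0.05 there were 7, 1 and 7 receptors in these comparisons, where 8.99%, 2.93% and 5.97% of all genes were. On the normal diet 6 receptors lay lower in all Lats2-CKO arrays (Hnf4a, Rxrg, Rara, Thra, Nr3c2 and Nr2f2), where 7.36% of all genes did, and Thrb lay higher, where 5.96% of all genes did. On the high-cholesterol diet 3 lay lower (Nr3c2, Nr2f2 and Nr4a1) and 0 higher, where 3.37% and 4.07% of all genes did.

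**Figure D5:**
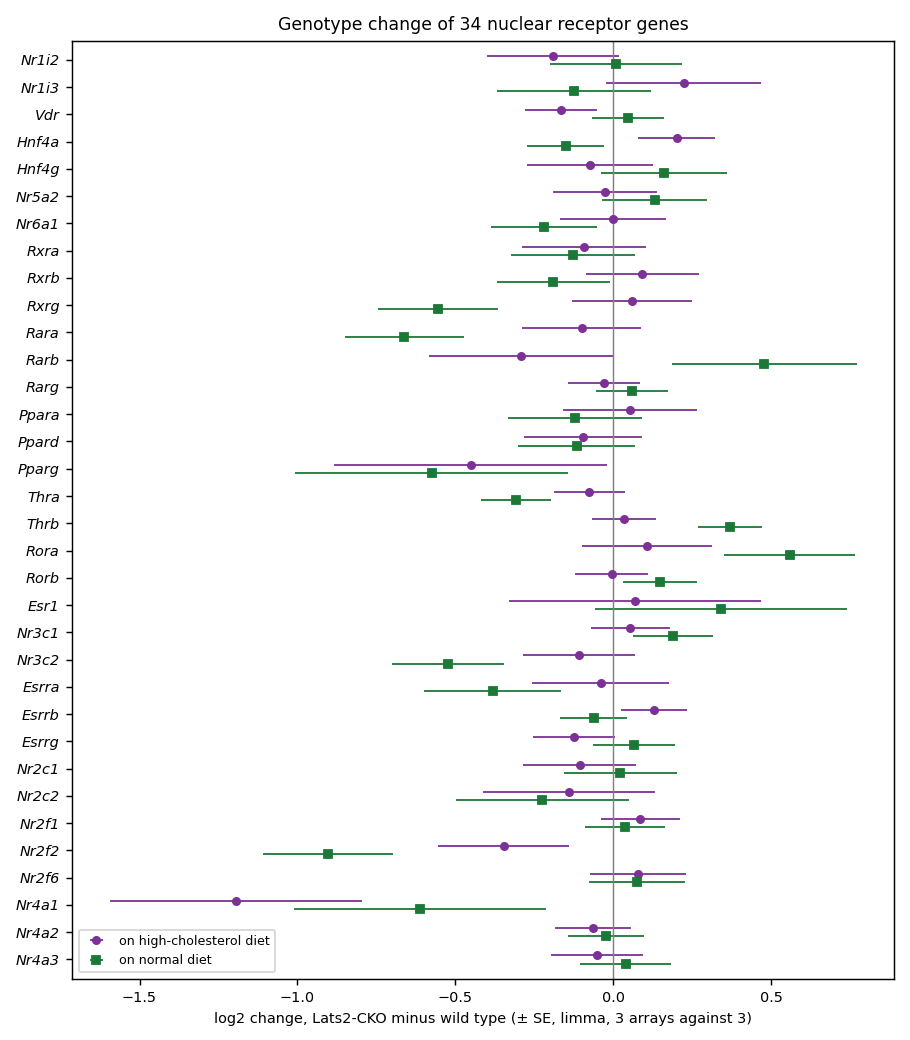
Change of each receptor with genotype (Lats2-CKO minus wild type, log2 ± SE, 3 arrays against 3) on the high-cholesterol (circles) and the normal diet (squares). Nr2f2 and Nr4a1 lie left of 0 on both diets, and no change shown passed the threshold.

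Nr2f2 encodes COUP-TFII, an orphan receptor of venous endothelium, stromal cells and hepatocytes. It read 4.49, 4.34 and 4.52 on the Lats2-CKO HCD arrays, against 4.65, 5.11 and 4.63 on the wild-type HCD arrays. On the normal diet it read 4.12, 3.51 and 4.03 in Lats2-CKO, against 4.80, 4.43 and 5.14 in wild type. The genotypes did not overlap on either diet, with changes of -0.35 ± 0.21 and -0.90 ± 0.21 on the high-cholesterol and the normal diet and -0.63 ± 0.15 over both (limma adjusted p = 1, 0.229 and 0.565). By array set the change over both diets was -0.48 (higher) and -0.78 (lower). Endothelial markers had lower values in the same arrays. By limma 0 of the 14 measured markers passed for genotype over both diets, and 14 of 14 had lower fitted values in Lats2-CKO (median -0.43, against 0.00 for all genes). All 14 lay above the 30th percentile. The list's centred mean ran from -0.48 to -0.08 on the Lats2-CKO HCD arrays and from -0.22 to -0.11 on the Lats2-CKO ND arrays, against 0.06 to 0.25 and 0.26 to 0.35 in wild type. Macrophage and Kupffer cell markers were lower as well, with 21 of 21 lower fitted values over both diets (median -0.65) and 0 called. Stellate cell and fibroblast markers had 15 of 15 lower fitted values on the high-cholesterol diet (median -0.26) and 7 of 15 on the normal diet (median 0.06), with 0 called on either. Fewer cells of a type and less RNA per cell cannot be told apart in whole liver, and the part of these cell types in the Nr2f2 values was not tested. Nr2f1, encoding COUP-TFI, was dim (2.73 to 3.17).

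Nr4a1 encodes NUR77, an immediate early receptor that stress, growth factors and inflammatory signals induce within hours. It read 3.68, 3.80 and 3.56 on the Lats2-CKO HCD arrays, against 4.91, 5.86 and 3.86 on the wild-type HCD arrays. On the normal diet it read 3.96, 3.18 and 3.73 in Lats2-CKO, against 4.56, 4.21 and 3.93 in wild type. The genotypes did not overlap on the high-cholesterol diet, and arrays 1 and 2 of wild type were the highest of all. The change was -1.20 ± 0.40 on the high-cholesterol diet, -0.61 ± 0.40 on the normal diet and -0.90 ± 0.28 over both (limma adjusted p = 1, 0.725 and 0.714). On the high-cholesterol diet Nr4a1 gave -0.70 without wild-type HCD array 2 and -1.70 without wild-type HCD array 3 (limma adjusted p = 1 and 0.0818). Of 18 immediate early genes, 0 passed on the high-cholesterol diet, and 17 had lower fitted values in Lats2-CKO (median -0.29). Fos and Egr1, of the first genes that a signal switches on, had changes of -0.02 ± 0.23 and -1.24 ± 1.20 there (limma adjusted p = 1 for both). The list's centred mean was 0.72 on wild-type HCD array 2, the array with the highest Nr4a1, and -0.41 to 0.22 on the other arrays apart from 0.54 on Lats2-CKO ND array 2. Macrophage and Kupffer cell markers had a centred mean of 1.17 on both wild-type HCD arrays 1 and 2 and of 0.08 on array 3, against -0.25 to 0.32 on the Lats2-CKO HCD arrays. Of these 21 markers 0 passed for genotype on that diet and 20 had lower fitted values, and their part in the Nr4a1 values was not tested. Its relatives Nr4a2 and Nr4a3, encoding NURR1 and NOR1, ran from 2.58 to 3.14 and from 2.95 to 3.60.

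Rara, encoding retinoic acid receptor alpha, read 4.05, 4.13 and 4.11 on the Lats2-CKO HCD arrays, against 4.23, 4.35 and 4.01 on the wild-type HCD arrays. On the normal diet it read 4.27, 3.46 and 3.81 in Lats2-CKO, against 4.51, 4.28 and 4.75 in wild type. The groups overlapped on the high-cholesterol diet only, and the change was -0.66 ± 0.19 on the normal diet and -0.38 ± 0.13 over both diets (limma adjusted p = 0.273 and 0.759). Nr3c2 read 4.99, 4.42 and 5.17 in Lats2-CKO, against 5.17, 5.32 and 5.66 in wild type on the normal diet, where it had a change of -0.52 ± 0.18 (limma adjusted p = 0.366). Rxrg had a change of -0.56 ± 0.19 and Rora of 0.56 ± 0.21 on the normal diet (limma adjusted p = 0.37 and 0.427). Thrb had a change of 0.37 ± 0.10 and Thra of -0.31 ± 0.11 there (limma adjusted p = 0.269 and 0.406), so these thyroid hormone receptor genes had fitted values of opposite sign.

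The estrogen-related receptors are orphan regulators of mitochondrial genes, and 0 of the 3 passed in any comparison. Esrra, their main form in metabolic tissue, read 5.71, 5.48 and 5.58 on the Lats2-CKO HCD arrays, against 5.68, 5.25 and 4.87 on the Lats2-CKO ND arrays, and 5.58 to 5.65 on the wild-type HCD arrays, against 5.26 to 6.09 on the wild-type ND arrays. The diet change was 0.15 ± 0.15 (limma adjusted p = 0.658) and the genotype change over both diets -0.21 ± 0.15 (limma adjusted p = 0.898). On the normal diet the genotype change of Esrra was -0.38 ± 0.22 (limma adjusted p = 0.664), and -0.59 to -0.16 with 1 array left out. Esrrg had a change of -0.28 ± 0.13 with diet in Lats2-CKO (limma adjusted p = 0.392), where the diets did not overlap. Esrrb, of the same family and not overlapping between diets in wild type, and Rorb, known from retina and brain, had values of 2.54 to 3.13.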

How the data were processed

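Liver RNA of 12 mice was measured on single-colour arrays, 3 per group. The deposited values are log2 expression per probe set after RMA in Partek 6.6, per the submitters' processing notes; settings, build and filters are not given in the sources used here. The log2 scale was read from the range of the values (1.94 to 14.2). Genes were named through the platform annotation, with symbols updated by identifier against a RefSeq table of GRCm38.p6. Of 41345 probe sets, 23521 had 1 symbol, 1814 several and 16010 none, and probe sets with several or none were left out. The brightest probe set stood for a gene, which gave 22180 genes. The number of arrays limits the precision.

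One limma fit (3.58.1, R 4.3.3; lmFit and eBayes) with 4 group means over 12 arrays gave each contrast, with Benjamini-Hochberg adjustment over all genes at 0.05. It was first tested on simulated data. Errors of changes are SE of the fit, and values in a group are single arrays. The members and lists were chosen with earlier results of these data known. All 34 receptors are named, with fixed marker targets (17 genes) and up to 3 genes past the threshold per list and comparison. There are 20 lists with 303 entries, 270 of them measured. Replicate numbers were not used as pairs in the fit. Deviations of same-numbered arrays correlated above 0.1 in 7 of 18 pairs (0.00 to 0.18), and differently numbered arrays were not compared in this way. Array 1 of each group lay in the higher array set and array 3 in the lower, so replicate number and set are tied. The labels call the replicates biological. Alternatives were a fit on the groups compared, a replicate block, an array set block, a trended and robust prior, dim genes left out, the mean of probe sets, quantile normalisation, array weights and each array left out.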

Additional observations from a re-analysis of the deposited data

How the results depend on the processing

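No receptor change passed the threshold in the main fit, so there was no call that an alternative could reverse. Changes that passed under an alternative kept their sign. Among 4854 changes of receptors compared with an alternative, 12 passed that had not in the main fit, and 252 that passed under neither turned their sign. In the main fit 0 receptors passed in each comparison. For diet over both genotypes 2 of 34 receptors passed with array weights (Nr2c2 and Nr3c1), where 1371 of 22180 genes did. With the array set block and wild-type ND array 3 left out 2 passed (Nr2c2 and Esr1), where 1229 genes did. Both are near the share of all genes. When 1 array was left out 0 to 3 receptors and 6 to 1605 genes passed. In wild type 1 receptor (Nr2c2) passed with that block and without array 3, where 374 genes did. In each genotype 0 to 1 receptors passed when 1 array was left out, where 0 to 516 genes did in wild type and 5 to 468 in Lats2-CKO. The adjusted p of the Nr2c2 diet change ran from 0.00224 to 0.177 over the alternatives.

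Counts over all genes moved more. For diet in Lats2-CKO, 60 genes passed, against 33 with the array set block, 573 with that block and without wild-type ND array 3, 274 with array weights, 104 without dim genes, 265 on the groups compared, 98 with the trended prior and 5 to 468 with 1 array left out. For diet in wild type, 0 passed (2349 at an unadjusted p under 0.05), against 374 with the block and without array 3, 13 with array weights and 0 to 516 with 1 array left out. For diet over both genotypes, 274 passed, against 43, 1229, 1371 with the block, the block without array 3 and array weights, 421 without dim genes, and 6 to 1605 with 1 array left out (fewest without wild-type ND array 2, most without wild-type ND array 3). For genotype on the normal diet, 3 passed, against 11 and 6 with the block and the block without array 3, 1 on the groups compared, 5 with the trended prior and 3 to 17 with 1 array left out. On the high-cholesterol diet 0 passed (650 at an unadjusted p under 0.05), and 0 to 22 did with 1 array left out, the most without wild-type HCD array 3. Over both diets 1 passed, against 2 with the block, 2 with the block without array 3, 3 with array weights, 2 with the trended prior and 1 to 8 with 1 array left out. For the interaction 1 passed, against 2 with the block, 3 without dim genes, 2 with the trended prior and 1 to 2 with 1 array left out. The cause was not tested. A replicate block changed no receptor call, and 58 genes passed for diet in Lats2-CKO and 311 over both genotypes with it. The fit on the groups compared is the same as the fit on all arrays for the contrasts that use all 4 groups. Dim receptors limit what the arrays can show.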

Other observations

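Coregulators of nuclear receptors and the receptors of the sterol and clock loops give the surroundings of the genes above. Of 22 measured coregulators and liver factors, 0 passed for diet over both genotypes with all arrays, 15 had higher fitted values, and the median was 0.09 where that of all genes was -0.02. Without wild-type ND array 3, 2 rose: Ppargc1a, the coactivator of mitochondrial and gluconeogenic genes, by 1.07 ± 0.22, and Ep300, a histone acetyltransferase, by 0.36 ± 0.09 (limma adjusted p = 0.02 and 0.038). Without that array 7.24% of all genes passed, so 2 of 22 is near the background. With all arrays Ppargc1a had a change of 0.79 ± 0.31 and Ep300 of 0.28 ± 0.10 (limma adjusted p = 0.218 and 0.185). For genotype over both diets 0 of the 22 passed, with 12 higher and 10 lower fitted values. Of 11 other nuclear receptors measured, 0 passed with all arrays. Without array 3 the clock repressor gene Nr1d1 rose with diet by 0.47 ± 0.105 (limma adjusted p = 0.0263; 0.194 with all arrays), 1 of 11 against the same 7.24%.

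The extremes of the 34 receptors were spread over the arrays. Lats2-CKO ND array 2 held the lowest value of 7 receptors and wild-type ND array 3 the highest of 6.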
